A study of Mus musculus with 6 samples.

Results

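The genes described here are 10 genes of neutrophil chemotaxis, chosen by name out of the 54532 genes in the deposited count table. They comprise 4 receptor genes, *Cxcr1*, *Cxcr2*, *Cxcr4* and *Csf3r*, and 6 ligand genes, *Cxcl1*, *Cxcl2*, *Cxcl5*, *Cxcl12*, *Cxcl15* and *Ppbp*. All 10 had an entry in the table, and 9 passed the filter on low counts (0.5 CPM in at least 1 library, where CPM is a gene's count scaled to a common library size). *Cxcl2* stayed under it. *Cxcl5* passed only through ISM1-/- replicate 1.

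The data are RNA sequencing of perfused whole lungs of untreated mice at 2 months of age, comparing 3 WT libraries with 3 ISM1-/- libraries. ISM1 (isthmin 1) is a secreted protein of the lung, and the comparison asks how the lung transcriptome differs without it before any challenge. The WT animals were purchased C57BL/6J mice, and the ISM1-/- animals carried a knockout of *Ism1* bred in-house on a C57BL/6J background, so where the animals came from and their genotype cannot be told apart. No transgene, Cre driver or treatment was part of the design.

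Neutrophils leave the bone marrow, travel in blood and enter tissue along gradients of chemokines that bind G protein-coupled receptors on their surface. CXCR2 is the main receptor for the CXC chemokines that carry the ELR amino acid motif, among them the products of *Cxcl1*, *Cxcl2*, *Cxcl5* and, after processing, *Ppbp*. CXCR4 and its ligand CXCL12 hold neutrophils in the marrow, and granulocyte colony-stimulating factor, acting through the product of *Csf3r*, drives their production and release. Lung capillaries hold many neutrophils at rest, so transcripts of neutrophils can be found in lung RNA without infection.

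The genes fall at a few places in the genome (GRCm38, coordinates as deposited). *Cxcr2* (ENSMUSG00000026180) lies on chr1:74153989-74161246 on the plus strand, and *Cxcr1* (ENSMUSG00000048480) lies 30538 bp away on chr1:74191785-74194631 on the minus strand. *Cxcr4* (ENSMUSG00000045382) is on chr1:128588199-128592293 (minus), *Csf3r* (ENSMUSG00000028859) on chr4:126024550-126044440 (plus) and *Cxcl12* (ENSMUSG00000061353) on chr6:117168535-117181367 (plus). The other 5 ligand genes share a stretch of 146579 bp of chromosome 5, all on the plus strand. In order, they are *Cxcl5* (ENSMUSG00000029371, chr5:90759360-90761624), *Ppbp* (ENSMUSG00000029372, chr5:90768518-90770063), *Cxcl15* (ENSMUSG00000029375, chr5:90794534-90803067), *Cxcl1* (ENSMUSG00000029380, chr5:90891241-90893115) and *Cxcl2* (ENSMUSG00000058427, chr5:90903871-90905938).

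Promoter sequences from RefSeq (GRCm38.p6) were matched for 9 of the 10 genes, all but *Cxcl5*. The 250 bases before each RefSeq start were searched on both strands for 3 motifs. These were the PU.1 core (AGGAAG or CTTCCT, a myeloid factor), a C/EBP motif (TTGCNNAA or TTNNGCAA, a family that drives granulocyte genes) and an NF-kB motif (GGG, any 2 bases and TTTCC, or its reverse complement, a family that responds to inflammation). The sequences shown are those of the 2 receptor genes that passed the test between genotypes and of the pair of ligand genes that are classically inducible by inflammation. Each is written 5' to 3' on the plus strand and ends just before the deposited gene start, with motif matches in capitals.
Cxcr2, chr1:74153744-74153988: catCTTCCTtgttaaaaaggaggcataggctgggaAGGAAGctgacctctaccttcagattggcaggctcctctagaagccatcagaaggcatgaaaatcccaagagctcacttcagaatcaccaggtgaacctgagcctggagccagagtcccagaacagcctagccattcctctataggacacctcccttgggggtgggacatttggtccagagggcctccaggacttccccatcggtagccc
Csf3r, chr4:126024409-126024549: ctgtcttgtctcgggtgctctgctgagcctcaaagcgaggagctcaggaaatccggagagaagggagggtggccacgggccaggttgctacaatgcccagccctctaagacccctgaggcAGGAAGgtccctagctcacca
Cxcl1, chr5:90890995-90891240: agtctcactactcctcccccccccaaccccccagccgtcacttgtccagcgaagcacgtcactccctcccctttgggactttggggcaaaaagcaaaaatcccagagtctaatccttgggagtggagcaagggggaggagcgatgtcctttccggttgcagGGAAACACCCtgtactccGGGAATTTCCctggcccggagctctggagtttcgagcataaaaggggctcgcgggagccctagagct
Cxcl2, chr5:90903649-90903870: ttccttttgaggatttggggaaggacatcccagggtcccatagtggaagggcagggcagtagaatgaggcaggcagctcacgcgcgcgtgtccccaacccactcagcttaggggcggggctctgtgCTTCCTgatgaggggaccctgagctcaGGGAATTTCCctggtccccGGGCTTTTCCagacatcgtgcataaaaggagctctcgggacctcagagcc
*Cxcr2* held 2 PU.1 core matches and *Csf3r* held 4, of which 1 is in the bases shown because its deposited gene start lies upstream of the RefSeq start. *Cxcl1* and *Cxcl2* each held 2 NF-kB matches, between 62 and 97 bases before their RefSeq starts, and *Cxcl2* also held 1 PU.1 core match. The capitals did not overlap each other. Among 32851 RefSeq promoters searched the same way, 29.5% held the PU.1 core, 9.56% the C/EBP motif and 1.41% the NF-kB motif. None of the 3 motifs was found in the windows of *Cxcr1*, *Cxcr4*, *Cxcl12*, *Cxcl15* and *Ppbp*. These matches are letters in a window, and binding was not measured.

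Each library held between 37606133 and 42345042 counts over all genes, and every pair of libraries differed by more than sampling noise. The targeted gene, *Ism1*, was counted 3098, 3215 and 2975 times in WT lungs and 2784, 2508 and 2953 times in those labelled ISM1-/-. The difference, -0.19 on the log2 scale (SE 0.0709), did not pass (adjusted p 0.217, edgeR's quasi-likelihood test, Benjamini-Hochberg). Without ISM1-/- replicate 3 it passed (-0.26, adjusted p 0.0356), within a range of 0.0356 to 0.486 over 13 alternatives. The knockout was therefore not visible as loss of *Ism1* counts, and genotypes are known from the labels alone. Which bases of the gene the knockout removes is not given in the sources used here. In whole lung, fewer cells of a type and less RNA per cell cannot be told apart.

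On a scale that corrects for transcript length (FPKM), the ligand genes spanned a far wider range of levels than the receptor genes. *Cxcl15*, a chemokine made by lung epithelium, was highest, at 660 to 711 FPKM in the WT libraries. It was followed by *Cxcl12* at 77.8 to 91.8 FPKM, *Cxcr4* at 40.4 to 52.5, *Csf3r* at 9.47 to 13.7, *Ppbp* at 3.45 to 3.51 and *Cxcr2* at 0.897 to 1.72. Up to this point in the order, the lowest library of each gene lay above the highest library of the next. *Cxcl1* (0.367 to 0.495 FPKM) and *Cxcr1* (0.262 to 0.463) overlapped, as did *Cxcl2* (0.137 to 0.178) and *Cxcl5* (0.0754 to 0.139). *Cxcl15* made up 83.8% to 88.9% of the summed FPKM of the 6 ligand genes across the 6 libraries.

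**Figure D1:**
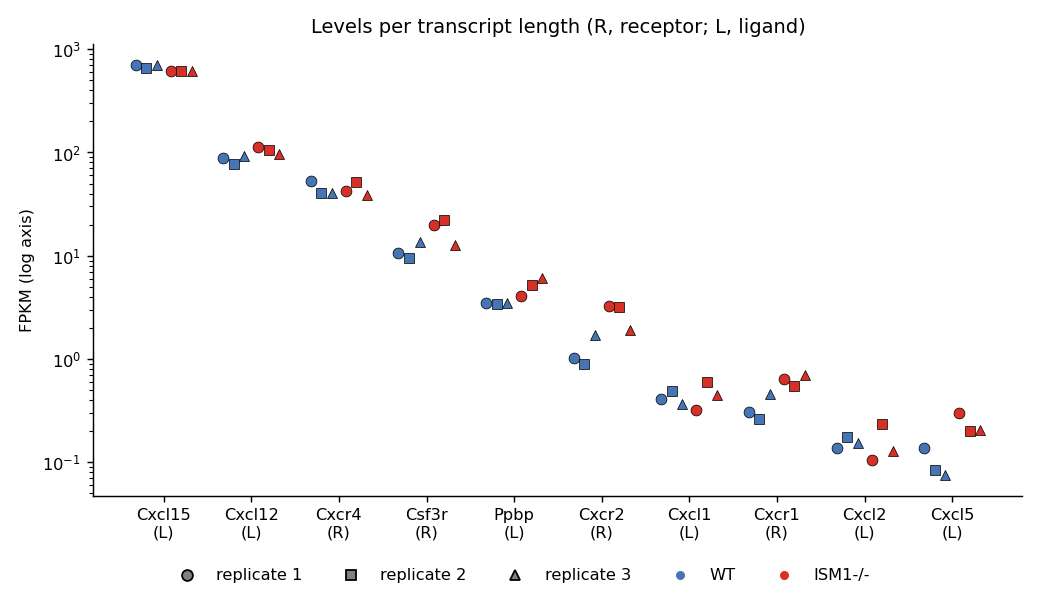
Level of each of the 10 genes per transcript length, in FPKM on a log axis, with 1 point per library and WT and ISM1-/- libraries marked apart. The genes run from *Cxcl15*, at 660 to 711 FPKM in WT, down to *Cxcl5*, at 0.0754 to 0.139.

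Among the receptors, *Cxcr2* and *Csf3r* rose in ISM1-/- lungs, *Cxcr1* had a positive value that did not pass the test, and *Cxcr4* was at the same mean level in both genotypes. A gene is said to have risen or fallen where its adjusted p was under 0.1 over all genes tested, which 4.72% of them met, and log2 fold changes are of ISM1-/- over WT. *Cxcr2* stood at 2.71, 2.36 and 4.53 CPM in the WT libraries and at 8.56, 8.41 and 5.15 CPM in the ISM1-/- libraries. Every ISM1-/- library was above every WT library, but ISM1-/- replicate 3 lay close to WT replicate 3. The means were 3.20 ± 1.16 and 7.37 ± 1.93 CPM (SD, n = 3 each), or 1.22 ± 0.444 and 2.80 ± 0.754 FPKM. The log2 fold change was 1.21 (SE 0.263, 95% interval 0.62 to 1.79), a 2.31-fold difference with an adjusted p of 0.0471 by edgeR's quasi-likelihood test. The study picked *Cxcr2* out from these same samples, so its direction is not independent evidence. With 1 library left out at a time the log2 fold change stayed between 1.03 and 1.54. The call was lost without WT replicate 1 (1.11, adjusted p 0.108), WT replicate 2 (1.03, adjusted p 0.160), ISM1-/- replicate 1 (1.09, adjusted p 0.167) or ISM1-/- replicate 2 (1.10, adjusted p 0.160).

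*Csf3r*, the receptor for granulocyte colony-stimulating factor, stood at 22.1, 19.5 and 28.3 CPM in WT and at 40.9, 45.8 and 26.6 CPM in ISM1-/- lungs. The groups overlapped, since ISM1-/- replicate 3 lay below WT replicate 3. The means were 23.3 ± 4.48 and 37.8 ± 9.98 CPM (SD, n = 3 each), and the log2 fold change was 0.70 (SE 0.190, 95% interval 0.27 to 1.12), a 1.62-fold difference. Its adjusted p of 0.0970 by edgeR's quasi-likelihood test was just under the threshold of 0.1. The call was lost in 8 of 13 alternative fits, over which the adjusted p ran from 0.000304 to 0.287. They included DESeq2 (adjusted p 0.117), scaling by library totals (0.108), the filter for protein-coding genes above 2 CPM (0.106) and the fit with the replicate number as a block (0.111). The others were the fits without WT replicate 1 (0.66, adjusted p 0.194), WT replicate 2 (0.58, adjusted p 0.287), ISM1-/- replicate 1 (0.64, adjusted p 0.268) or ISM1-/- replicate 2 (0.54, adjusted p 0.264).

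*Cxcr1*, the neighbour and close relative of *Cxcr2*, was scarce, with 15, 14 and 23 counts in WT and 35, 27 and 36 in ISM1-/- lungs. The groups did not overlap. The means were 0.443 ± 0.135 and 0.819 ± 0.106 CPM (SD, n = 3 each), and the log2 fold change was 0.89 (SE 0.313, 95% interval 0.19 to 1.58). It did not pass the threshold (adjusted p 0.193 by edgeR's quasi-likelihood test). At this depth the interval covers folds from 1.14 to 2.998.

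*Cxcr4*, which many leukocytes and endothelial cells also express, stood at 70.9, 54.6 and 55.3 CPM in WT and at 56.7, 70.4 and 53.5 CPM in ISM1-/- lungs. Each genotype had 1 library near 70 CPM and the others near 55 CPM, and the groups overlapped fully. The means were 60.2 ± 9.21 and 60.2 ± 8.97 CPM (SD, n = 3 each). The log2 fold change was -0.00042 (95% interval -0.28 to 0.28, adjusted p 0.999 by edgeR's quasi-likelihood test), and its sign depended on the scaling, at 0.0044 with RLE size factors. The interval lies below the 0.62 at which that of *Cxcr2* began.

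**Figure D2:**
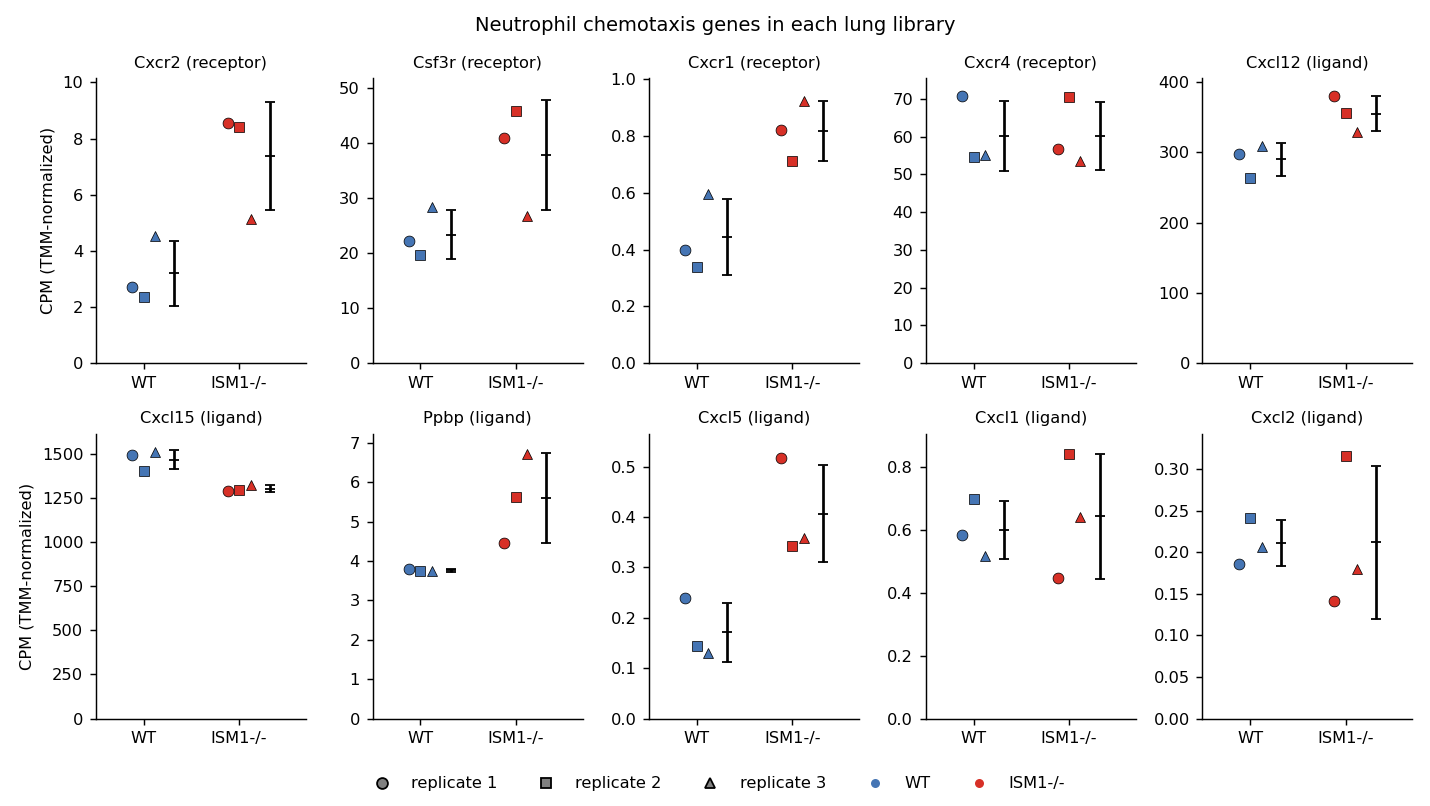
Level of each of the 10 genes in every library, in TMM-normalized CPM, 1 panel per gene with its own axis from 0. Points are libraries and the black dashes with error bars are means ± SD over 3 libraries. The WT and ISM1-/- points do not overlap for *Cxcr1*, *Cxcr2*, *Cxcl5*, *Cxcl12*, *Cxcl15* and *Ppbp*.

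Of the ligands, *Cxcl12* alone passed the test. *Cxcl12*, made by endothelial and stromal cells and bound by CXCR4, stood at 297, 263 and 310 CPM in WT and at 380, 356 and 330 CPM in ISM1-/- lungs. The groups did not overlap, and ISM1-/- replicate 3 was again the ISM1-/- library closest to WT. The means were 290 ± 24.0 and 355 ± 25.1 CPM (SD, n = 3 each), and the log2 fold change was 0.29 (SE 0.0770, 95% interval 0.12 to 0.46), a 1.22-fold difference with an adjusted p of 0.0872 by edgeR's quasi-likelihood test. The call was lost in 6 of 13 alternative fits, over which the adjusted p ran from 0.00988 with DESeq2 to 0.290. They were scaling by library totals (0.106) and the fits without WT replicate 1 (0.125), WT replicate 2 (0.290), WT replicate 3 (0.125), ISM1-/- replicate 1 (0.274) or ISM1-/- replicate 2 (0.215).

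*Cxcl15*, the most abundant ligand, was the one gene of the 10 whose ISM1-/- libraries all lay below the WT libraries. It stood at 1492, 1404 and 1508 CPM in WT and at 1290, 1296 and 1324 CPM in ISM1-/- lungs. The means were 1468 ± 55.9 and 1303 ± 18.2 CPM (SD, n = 3 each), which is 88.8% of the WT level. The log2 fold change was -0.17 (SE 0.0574, 95% interval -0.30 to -0.043), and it did not pass by edgeR's quasi-likelihood test (adjusted p 0.171) but did by DESeq2 (adjusted p 0.0797). Over 13 alternatives the adjusted p ran from 0.0797 to 0.417. A small gene on the opposite strand, *Gm24322*, overlaps it but had a mean of 0.667 counts per library.

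*Ppbp*, a platelet and megakaryocyte gene whose processed product binds CXCR2, stood at 3.79, 3.73 and 3.75 CPM in WT and at 4.44, 5.61 and 6.72 CPM in ISM1-/- lungs. The groups did not overlap, and the WT libraries were nearly identical while the ISM1-/- libraries were spread. The means were 3.76 ± 0.0302 and 5.59 ± 1.14 CPM (SD, n = 3 each), and the log2 fold change was 0.57 (SE 0.162, 95% interval 0.21 to 0.93). Its adjusted p was 0.108 by edgeR's quasi-likelihood test. It passed with DESeq2 (0.0441), with no filter on low counts (0.0354) and without ISM1-/- replicate 1 (0.72, adjusted p 0.0868), within a range of 0.0354 to 0.279 over 13 alternatives.

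The inducible ELR ligands were near the limit of detection in both genotypes. *Cxcl5*, an epithelial neutrophil attractant, had 9, 6 and 5 counts in WT and 22, 13 and 14 in ISM1-/- lungs, without overlap. Its log2 fold change of 1.25 (SE 0.422, 95% interval 0.30 to 2.19) did not pass (adjusted p 0.175 by edgeR's quasi-likelihood test). *Cxcl1*, induced in many cells by inflammation, had 22, 29 and 20 counts in WT and 19, 32 and 25 in ISM1-/- lungs. The groups overlapped, and the log2 fold change was 0.09 (95% interval -0.63 to 0.81, adjusted p 0.933 by edgeR's quasi-likelihood test), with a negative sign without WT replicate 3 (-0.0038) or ISM1-/- replicate 2 (-0.15). *Cxcl2*, a macrophage and neutrophil product, had 7, 10 and 8 counts in WT and 6, 12 and 7 in ISM1-/- lungs. It was not tested, and with no filter its log2 fold change was -0.01 with a 95% interval of -1.10 to 1.08. The interval of *Cxcl1* covers folds from 0.646 to 1.76, and that of *Cxcl2* is wider. Both genes carry the NF-kB matches shown above.

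**Figure D3:**
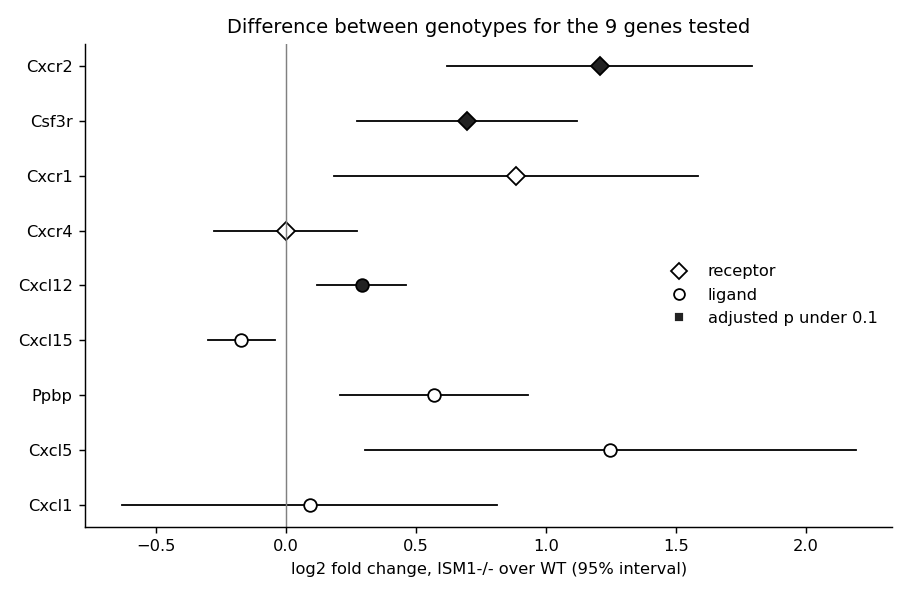
Log2 fold change of ISM1-/- over WT for the 9 genes tested, with 95% intervals from edgeR's quasi-likelihood fit. Diamonds are receptors, circles are ligands, and filled symbols (*Cxcr2*, *Csf3r* and *Cxcl12*) had an adjusted p under 0.1. The interval of *Cxcr4* is centred on 0 and that of *Cxcl15* lies below it.

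In all, 3 of the 9 genes tested passed an adjusted p of 0.1, all of them higher in ISM1-/- lungs, beside 4.72% of all 18689 genes tested, 1.38% called higher and 3.34% called lower. *Cxcr2* also exceeded a 2-fold change, as did 0.567% of all genes. The count of 3 fell to 0 without WT replicate 1, WT replicate 2 or ISM1-/- replicate 2, when 6, 6 and 7 of these genes were at an unadjusted p under 0.05 by edgeR. It was 1 without ISM1-/- replicate 1 and with library totals alone, and 4 with DESeq2, which called 1285 of all 18689 genes tested. By class, edgeR called 2 receptors and 1 ligand, whereas DESeq2 called 1 receptor (*Cxcr2*) and 3 ligands (*Cxcl12* and *Ppbp* higher, *Cxcl15* lower), so which class held more calls depended on the test. The groups did not overlap for 5 genes that were higher and 1 that was lower, beside 9.33% and 12.3% of all genes and 21.6% in either direction. The 5 include *Cxcl5*. Without *Cxcl5*, the groups did not overlap for 2 higher and 1 lower of the 4 ligands tested. The median log2 fold change was 0.79 over the 4 receptors and 0.29 over the 5 ligands tested, against 0.0043 over all genes. The ligand median includes *Cxcl5*, which reached the test through its ISM1-/- level, and was 0.19 without it.

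The receptors were then set against the ligands within each library as the mean log2 CPM of each class over all 10 genes. The receptor mean was 2.73, 2.49 and 3.04 in WT and 3.52, 3.59 and 3.21 in ISM1-/- lungs, without overlap, a difference of 0.68. The ligand mean was 2.70, 2.64 and 2.58 in WT and 2.81, 3.06 and 2.93 in ISM1-/- lungs, also without overlap, a difference of 0.29. It includes *Cxcl5*, with 9, 6 and 5 counts in WT and 22, 13 and 14 in ISM1-/- lungs. Whether the ligand means stay apart without *Cxcl5* was not tested. The receptor mean minus the ligand mean was 0.04, -0.15 and 0.46 in WT and 0.71, 0.53 and 0.28 in ISM1-/- lungs. These values overlapped, because ISM1-/- replicate 3 lay below WT replicate 3. The means were 0.11 ± 0.31 and 0.51 ± 0.22 (SD, n = 3 each), a difference of 0.39 that is close to the spread within a genotype. No p is given, since the classes were set with earlier results known.

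**Figure D4:**
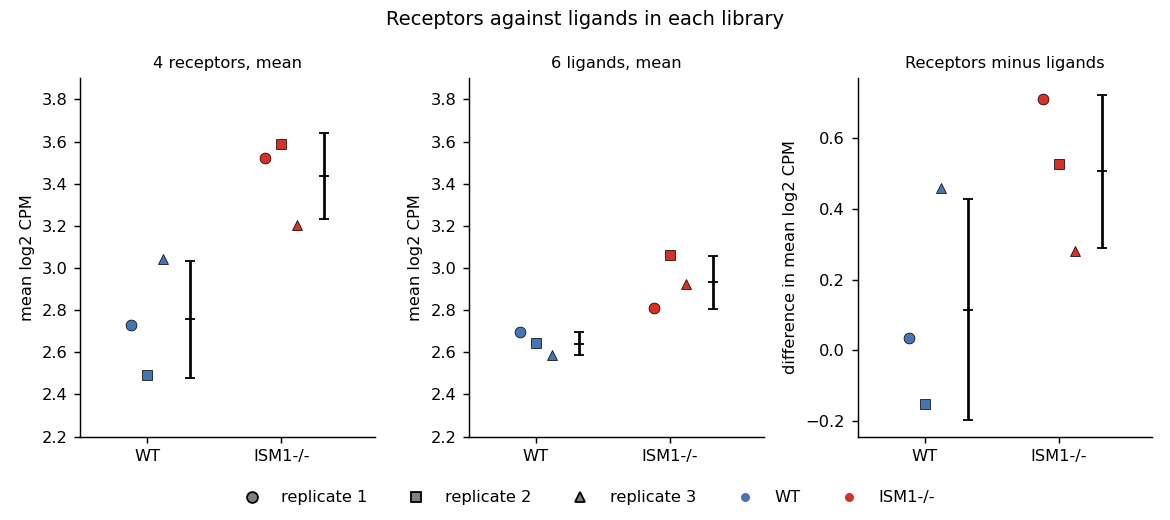
Mean log2 CPM of the 4 receptor genes, mean log2 CPM of the 6 ligand genes and their difference, in each library. Points are libraries and black dashes with error bars are means ± SD over 3 libraries of WT or ISM1-/- mice. With *Cxcl5* among the ligands, the receptor and ligand means each separate the genotypes, and their difference overlaps (WT -0.15 to 0.46, ISM1-/- 0.28 to 0.71).

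Count ratios between pairs of the 10 genes, chosen after their values were seen, show how far the members moved together. Lengths cancel between libraries, so only the change in a ratio can be read. The *Cxcr2* to *Csf3r* ratio was 0.122, 0.121 and 0.160 in WT and 0.209, 0.184 and 0.194 in ISM1-/- lungs, without overlap. The *Cxcr2* to *Cxcr1* ratio was 6.80, 7 and 7.61 in WT and 10.4, 11.8 and 5.58 in ISM1-/- lungs, with overlap. The *Cxcl12* to *Cxcr4* ratio, of a ligand and its own receptor, was 4.20, 4.82 and 5.60 in WT and 6.70, 5.05 and 6.16 in ISM1-/- lungs, also with overlap.

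Marker genes of the cells that carry these transcripts were examined beside them. Of 15 neutrophil markers, 11 were tested, 3 rose and none fell. *S100a8* and *S100a9*, the subunits of calprotectin, had log2 fold changes of 1.49 and 1.46 (adjusted p 0.0163 for each), and *Ngp*, a granule protein gene, had 2.38 (adjusted p 0.0504, all by edgeR's quasi-likelihood test). *Ngp* had 1, 11 and 12 counts in WT and 59, 42 and 27 in ISM1-/- lungs, so it reached the test only through its ISM1-/- level. The study picked the calprotectin genes out from these same samples, so their direction is not independent evidence. The neutrophil markers summed to 186 to 206 CPM in WT and 205 to 252 CPM in ISM1-/- lungs. Most of this came from *Lcn2* and *Ltf*, which are also airway epithelial genes. Without them, the sums were 32.3 to 41.2 CPM in WT and 55.1 to 100 CPM in ISM1-/- lungs, without overlap. Much of this smaller sum was *S100a9* (means of 12.7 CPM in WT and 34.9 CPM in ISM1-/- lungs) and *S100a8* (5.19 and 14.5 CPM). Whether the sums stay apart without *S100a8* and *S100a9* was not tested. *Ltf* was lower in every ISM1-/- library than in every WT library (log2 fold change -0.32, adjusted p 0.187 by edgeR's quasi-likelihood test), and *Lcn2* (0.02) and *Trem1* (-0.03) had values near 0. The median over the 11 markers tested was 0.49, in a range from -0.32 to 2.38, beside 1.21 for *Cxcr2* and 0.70 for *Csf3r*. Both the median and the top of the range include *Ngp*, and the highest value without it was 1.49, of *S100a8*. *Ly6g*, the defining surface marker of mouse neutrophils, had 1, 2 and 5 counts in WT and 4, 2 and 8 in ISM1-/- lungs.

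Count ratios of the receptors to a neutrophil gene depended on the gene, here 2 markers chosen after their values were seen. The *Cxcr2* to *S100a9* ratio was 0.272, 0.174 and 0.312 in WT and 0.176, 0.278 and 0.200 in ISM1-/- lungs, with overlap. Against *Mmp9*, a granule protease gene with a log2 fold change of 0.36, the *Cxcr2* ratio was 0.290, 0.274 and 0.399 in WT and 0.580, 0.596 and 0.589 in ISM1-/- lungs, without overlap. The *Csf3r* ratios to *S100a9* (2.22, 1.44 and 1.95 in WT, 0.843, 1.51 and 1.03 in ISM1-/- lungs) overlapped. Its ratios to *Mmp9* (2.37, 2.27 and 2.49 in WT, 2.77, 3.25 and 3.04 in ISM1-/- lungs) did not. How far neutrophil content enters the receptor differences was not tested.

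Platelet markers bear on *Ppbp*. Of 10 listed, 9 were tested and 1, *Tubb1*, rose (log2 fold change 0.62, adjusted p 0.0465 by edgeR's quasi-likelihood test), while *Gp1bb* was at 0 in every library. Of the 9, 8 had a positive value and the median log2 fold change was 0.54, beside 0.57 for *Ppbp*. Their sum, which leaves out *Ppbp*, was 59.8 to 69.3 CPM in WT and 75.3 to 81.7 CPM in ISM1-/- lungs. Most of it was *Itgb3*, at means of 41.7 CPM in WT and 48.6 CPM in ISM1-/- lungs. *Pf4*, the platelet chemokine gene beside *Ppbp*, had 257, 248 and 238 counts in WT and 226, 204 and 229 in ISM1-/- lungs, with a log2 fold change of -0.19 (adjusted p 0.467). The *Ppbp* to *Pf4* count ratio was 0.556, 0.625 and 0.609 in WT and 0.836, 1.04 and 1.14 in ISM1-/- lungs, without overlap. *Pf4* was the one platelet marker tested with a negative value. The *Ppbp* to *Tubb1* ratio was 0.650, 0.824 and 0.853 in WT and 0.596, 0.761 and 0.856 in ISM1-/- lungs, with overlap.

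Other cell types also differed between the genotypes. B cell markers, whose cells also express *Cxcr4*, rose for 3 of 7 genes (*Ms4a1* and *Cd79a* among them) and summed to 122 to 138 CPM in WT and 140 to 250 CPM in ISM1-/- lungs. Endothelial markers, of cells that make *Cxcl12*, had no call among 7 by edgeR or DESeq2 (3 at an unadjusted p under 0.05), at sums of 3950 to 4238 CPM in WT and 4288 to 4515 CPM in ISM1-/- lungs. Fibroblast markers fell for 3 of 7 genes (*Col1a1*, *Dcn* and *Lum*), at sums of 2212 to 2308 and 2070 to 2181 CPM. Club cell markers fell for 4 of 5 genes, at sums of 24125 to 26137 and 15984 to 19925 CPM, and type 2 epithelial markers had no call among 7 by edgeR or DESeq2 (1 at an unadjusted p under 0.05), at 23479 to 23900 and 22332 to 23472 CPM. Adipocyte markers fell for 6 of 6 genes (sums of 85.2 to 111 and 24.5 to 54.0 CPM), and cardiomyocyte markers for 1 of 8 (*Myl7*, at list sums of 504 to 1572 and 276 to 539 CPM). All 8 cardiomyocyte markers had an unadjusted p under 0.05 by edgeR, with a median log2 fold change of -1.07, and DESeq2 called 0. Of 7 monocyte markers *F13a1* fell, while the sum (1358 to 1459 and 1482 to 1555 CPM) was mostly *Ace*, which endothelial cells also express (means of 1302 and 1420 CPM). Alveolar macrophage markers had no call among 7 by edgeR or DESeq2 (2 at an unadjusted p under 0.05; 672 to 746 and 614 to 708 CPM), and erythroid markers had none among 6 tested by either tool (0 at an unadjusted p under 0.05; 135 to 446 and 149 to 625 CPM). Of 10 immediate early genes, which respond to tissue handling, *Ier3* rose, and the sums over the list were 732 to 993 and 727 to 974 CPM. The part of any of these in the values of the 10 genes was not tested.

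**Figure D5:**
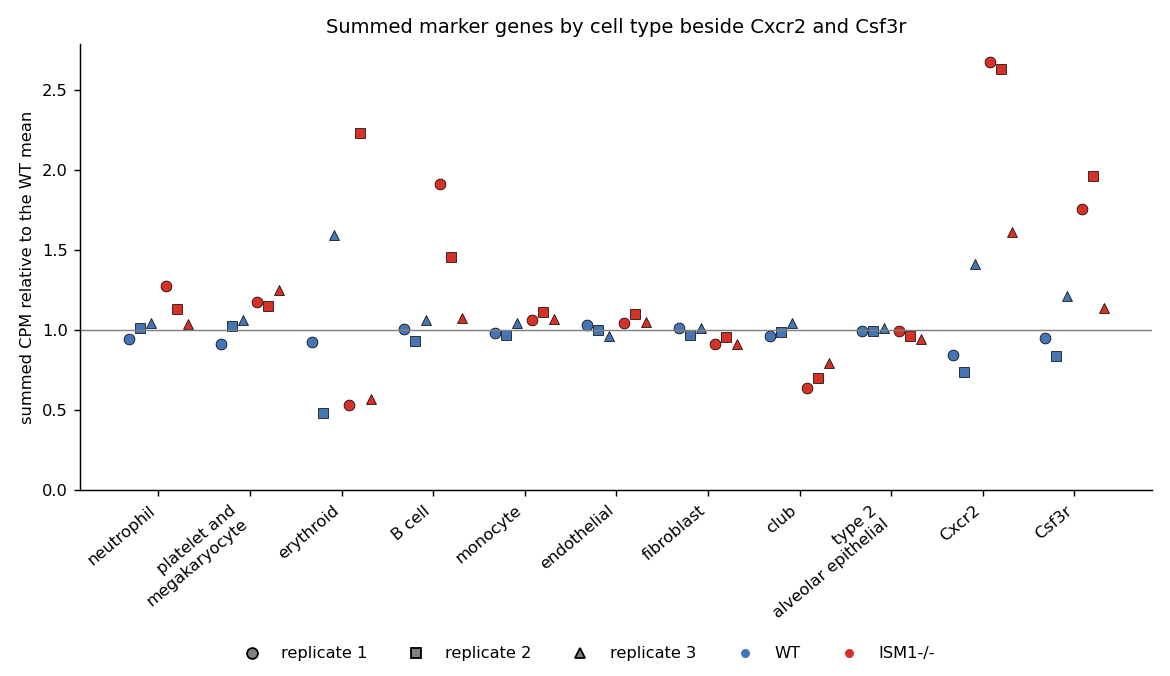
Summed CPM of marker gene lists in each library, divided by the mean of the WT libraries, with *Cxcr2* and *Csf3r* on the same scale. Points are libraries and the line at 1 is the WT mean. The neutrophil sums of the genotypes overlap (186 to 206 against 205 to 252 CPM), and the platelet sums do not (59.8 to 69.3 against 75.3 to 81.7 CPM). Most of the platelet sum is *Itgb3*, and most of the neutrophil sum is *Lcn2* and *Ltf*. Without *Lcn2* and *Ltf*, a neutrophil sum not drawn here, the genotypes do not overlap (32.3 to 41.2 against 55.1 to 100 CPM). Much of that smaller sum is *S100a8* and *S100a9*, and whether it stays apart without them was not tested.

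A list of 53 other genes of neutrophil recruitment was read beside the 10 genes. Of these, 49 were tested, 2 rose and none fell, 5 had an unadjusted p under 0.05 by edgeR and DESeq2 called 3. The median log2 fold change was 0.07, and the list's share of calls lay near that of all genes in either direction (4.72%). Of all genes, 1.38% were called higher and 3.34% lower, while both calls in the list were higher. *Il1b*, which encodes the inflammatory cytokine interleukin 1 beta, was among those that rose, at 5.45 ± 0.567 CPM in WT and 8.27 ± 1.87 CPM in ISM1-/- lungs (SD, n = 3 each), a log2 fold change of 0.60 (SE 0.166, adjusted p 0.0997 by edgeR's quasi-likelihood test). Its call was lost when WT replicate 1 (adjusted p 0.143), 2 (0.304) or 3 (0.186) or ISM1-/- replicate 1 (0.174) or 2 (0.261) was left out, and with library totals (0.108), the protein-coding filter (0.105) and the replicate block (0.113).

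None of the 10 other attractant receptors passed by edgeR or DESeq2, and 1 had an unadjusted p under 0.05 by edgeR. *Fpr1* and *Fpr2*, for formylated peptides, had log2 fold changes of 0.07 and -0.07, *C5ar1*, for complement C5a, had -0.03, and *Ltb4r1*, for leukotriene B4, had -0.04. *Ccr1* had 0.37 (adjusted p 0.141 by edgeR's quasi-likelihood test). These 5 were chosen after their values were seen. The 12 signalling genes below the receptors gave no call by edgeR, where 1 had an unadjusted p under 0.05, and 1 by DESeq2, with a median log2 fold change of 0.15 and 11 of 12 values above 0.

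Uncalled ligand, growth factor and decoy receptor genes were read in the same way. *Cxcl3*, an ELR ligand between *Ppbp* and *Cxcl15*, had 11, 10 and 2 counts in WT and 5, 7 and 5 in ISM1-/- lungs and was not tested. *Csf3*, which encodes the ligand of the *Csf3r* product, had 0, 2 and 0 counts in WT and 6, 0 and 1 in ISM1-/- lungs, so its level was not measurable here. *Ackr1*, a decoy that binds many chemokines, had a log2 fold change of -0.50 (adjusted p 0.627) on 6 to 20 counts per library, which ran from -0.74 without ISM1-/- replicate 1 to -0.20 without ISM1-/- replicate 3. *Ackr1* passed the filter only through WT replicate 3, so it has no value without that library. *Ackr3*, which scavenges CXCL12, stood at 38.6 ± 2.11 and 37.7 ± 3.46 CPM (SD, n = 3 each), a log2 fold change of -0.03 (adjusted p 0.894, both by edgeR's quasi-likelihood test).

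The genes whose log2 CPM across the 6 libraries was most like that of *Cxcr2* were sought among 15875 genes that averaged 1 CPM or more. They were *4930500M09Rik* (r = 0.994), *Arl4d* (0.991), *Igkj5* (0.985), *Gm16907* (0.985) and *Snn* (0.982). The 6 libraries share the genotype contrast and their sequencing depth, so these values are a description. *Arl4d* was the one of the 5 that passed the test (log2 fold change 0.30, adjusted p 0.0805 by edgeR's quasi-likelihood test). None of the 5 is in the neutrophil marker list.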

How the data were processed

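RNA from perfused lungs of 3 WT and 3 ISM1-/- mice was sequenced as paired reads. Per the study's methods and the submitters' processing notes, the authors mapped filtered reads to GRCm38 with STAR. The counting program, versions and annotation release are not given in the sources used here. The authors deposited raw whole-number counts per gene and FPKM values, which divide counts by the library total and 1 fixed length per gene. That length can be shorter than the listed gene length (*Cxcl12*, 3382 against 8176 bases). Groups were taken from the labels, and 0 value columns were left unmapped. The replicates are separate samples per the labels, which do not name the animals, so p-values measure the spread between these samples.

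Genes that reached 0.5 CPM in 1 library or more (18689 of 54532) were scaled by TMM and compared by edgeR 4.0.16 (R 4.3.3) with its quasi-likelihood test on the deposited counts. A gene was called at a Benjamini-Hochberg adjusted p under 0.1 over all genes tested. Log2 fold changes are ISM1-/- over WT, CPM values are scaled by TMM, and log2 CPM used a prior count of 2. The intervals are 95% intervals from the fit. An exact permutation test of 3 against 3 cannot go below 0.1 and was not used. Totals of 37606133 to 42345042 counts set the precision. Alternatives were DESeq2 1.42.0, RLE size factors, library totals, other filters and thresholds, a replicate block and leaving out each library. The procedure was tested on simulated data. The 10 genes and the gene lists were chosen with earlier results of these data known. The text names the 10 genes, *Ism1*, called pathway genes and the uncalled *Cxcl3*, *Pf4*, *Csf3*, *Ackr1* and *Ackr3*, the 5 genes most like *Cxcr2*, and up to 3 called genes of a marker list. Some genes that this rule names are not reported here. Genes named outside this rule were chosen after their values were seen.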

Additional observations from a re-analysis of the deposited data

How the results depend on the processing

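Among the 10 genes, *Cxcr2* was called in every fit with all 6 libraries. The number called (3) became 1 with library totals alone, 1 at an adjusted p of 0.05, 1 with a 2-fold minimum and 0 to 3 with 1 library left out (0 without WT replicate 1, WT replicate 2 or ISM1-/- replicate 2, and 1 without ISM1-/- replicate 1). Of the other recruitment genes, 2 were called. That number became 1 with library totals, 6 with no filter on low counts, 1 with the protein-coding filter, 1 with the replicate block, 0 at an adjusted p of 0.05 and 0 with a 2-fold minimum by edgeR. It ran from 0 to 14 with 1 library left out (14 without ISM1-/- replicate 3, 1 without WT replicate 1 and 0 without each of the others), and DESeq2 called 3, beside 5 at an unadjusted p under 0.05 by edgeR. Over all genes, 882 calls became 1632 with no filter, 455 at an adjusted p of 0.05 and 106 with a 2-fold minimum. They ran from 150 to 1470 with 1 library left out (150 without WT replicate 2, 341 without WT replicate 3, 247, 261 and 1470 without ISM1-/- replicates 1, 2 and 3). The cause of these shifts was not tested.

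The sign of the log2 fold change of *Cxcr4* turned with DESeq2 (0.0044), RLE size factors (0.0044), 0.5 CPM in at least 3 libraries (0.00028) and the protein-coding filter (0.0037), and ran from -0.13 to 0.13 with 1 library left out (0.13, 0.04 and 0.08 without WT replicate 1, ISM1-/- replicate 1 and ISM1-/- replicate 3). That of *Cxcl1* ran from -0.15 to 0.30 (negative, at -0.0038 and -0.15, without WT replicate 3 and ISM1-/- replicate 2), and that of *Ackr3* from -0.10 to 0.03 (positive, at 0.0083 and 0.032, without WT replicate 2 and ISM1-/- replicate 3). The receptor minus ligand difference kept its sign in all 11 alternatives, from 0.26 to 0.56.

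Same-numbered WT and ISM1-/- libraries did not deviate together (correlations -0.0405, 0.0310 and 0.00101), so the numbers were not taken as pairs. The fit with the replicate block called 2 of the 10 genes, without *Csf3r*, and 1105 of all genes. Depth limits *Cxcl1*, *Cxcl2*, *Cxcl5* and *Cxcr1*, each under 40 counts per library.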
